A study of Mus musculus with 5 samples.

Results

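Integrins are paired adhesion receptors of the cell surface, built from 1 alpha and 1 beta subunit. The RNA of 10 integrin subunit genes was examined in CD11b-positive brain cells: the alpha genes Itgam, Itgal, Itgav, Itga4, Itga6 and Itga9 and the beta genes Itgb1, Itgb2, Itgb3 and Itgb5. The members were chosen by name and function and not by a threshold on the values, with earlier results of these data known. All 10 are among the 56748 genes of the count table, and all 10 passed the low-count filter that kept 17724 genes. Itgam encodes CD11b itself, the surface protein that the cells are labelled as positive for.

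The cells came from the brains, without cerebellum, of mice that were 7 months old, with 1 library per mouse. Every mouse carried 5xFAD, a set of mutant human transgenes under the neuronal Thy1 promoter that leads to amyloid plaques. A group of 2 mice (replicates 1 and 3) was labelled 5xFAD, and a group of 3 mice (replicates 1, 2 and 3) was labelled 5xFAD/Cd5l tg/wt, which adds a mouse Cd5l transgene driven by the promoter of human PDGF-B. That promoter is not one specific to microglia, and wild-type mice were not analysed here. The sample descriptions speak both of CD11b-positive cells and of brain tissue, and how the cells were isolated is not stated there. CD5L is a secreted scavenger-receptor-family protein of macrophages, and the question addressed is how integrin RNA in these cells differed with its forced expression.

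Integrins switch between a bent, inactive and an extended, active form. The talin and kindlin adaptors bind the beta tail and drive that switch, and ligand binding then signals inward through Src-family kinases and Syk. In microglia the beta-2 integrins bind complement fragments and ICAMs. The alpha-v integrins bind vitronectin and apoptotic-cell bridging proteins and can release active TGF-beta, and the beta-1 integrins bind laminin, fibronectin and VCAM1. Because the protein of Itgam was the label of the cells, high Itgam RNA in every library is not taken as a result. The same holds for Itgb2, which encodes the beta partner of that protein. Isolation and cell identity cannot be told apart here.

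Library totals ran from 30798377 to 34794617 counts. Levels are CPM, counts scaled to library totals of equal size and adjusted by the TMM factors of edgeR, and levels of different genes are compared only as CPM per kilobase of the gene length listed in the authors' table. The microglial markers P2ry12 and Tmem119 were high in every library, at 1168 to 1617 and 874 to 969.8 CPM. Cd5l itself had 1.52 and 0.254 CPM without the transgene and 234, 335 and 195 CPM in its carriers, as the labels say. Here and below, values without the transgene are in the order 5xFAD replicates 1 and 3, and those of the carriers in the order of replicates 1, 2 and 3. The libraries of 4 mice stood apart in 1 respect or another. Markers of choroid plexus and ependyma summed to 2742 CPM in 5xFAD replicate 3, against 248 to 515 CPM elsewhere. Oligodendrocyte markers summed to 4179 CPM in Cd5l-transgenic replicate 2 and 1063 CPM in replicate 1, against 335 to 364 CPM in the others. The RNA of Spp1, a plaque-associated ligand of integrins, was 2766 CPM in 5xFAD replicate 1 and 461 to 744 CPM in the other libraries.

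Promoter sequences are shown for the sort marker Itgam, for its chromosomal neighbour Itgax, the most abundant alpha partner of Itgb2, and for the pair formed by Itgb5, the most abundant member, and its only alpha partner Itgav. RefSeq promoter sequences on GRCm38.p6 matched 6 of the 10 members (Itgam, Itgav, Itgb5, Itgb1, Itga4 and Itga9), and the 250 bases before the annotated start are printed 5′ to 3′ on the strand of the gene. Capitals mark GAGGAA or TTCCTC, the core bound by the myeloid factor PU.1 on either strand, and GGGCGG or CCGCCC, the GC box of Sp-family factors on either strand.

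Itgam, chr7:128062390-128062639, plus strand: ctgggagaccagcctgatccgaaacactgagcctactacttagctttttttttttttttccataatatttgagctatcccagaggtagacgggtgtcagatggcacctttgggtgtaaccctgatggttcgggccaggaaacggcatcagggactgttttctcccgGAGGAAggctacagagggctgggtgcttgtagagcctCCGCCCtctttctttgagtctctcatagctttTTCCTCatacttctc
Itgax, chr7:128129300-128129549, plus strand: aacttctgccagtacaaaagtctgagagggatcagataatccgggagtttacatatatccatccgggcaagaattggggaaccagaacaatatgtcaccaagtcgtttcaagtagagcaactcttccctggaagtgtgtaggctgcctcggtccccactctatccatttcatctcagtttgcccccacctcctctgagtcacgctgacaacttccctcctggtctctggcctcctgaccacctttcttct
Itgb5, chr16:33829415-33829664, plus strand: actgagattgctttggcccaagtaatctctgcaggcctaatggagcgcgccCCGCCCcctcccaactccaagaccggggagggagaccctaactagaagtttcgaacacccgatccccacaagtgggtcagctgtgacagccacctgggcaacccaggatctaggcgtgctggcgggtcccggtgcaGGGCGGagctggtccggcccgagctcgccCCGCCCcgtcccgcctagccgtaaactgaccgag
Itgav, chr2:83724147-83724396, plus strand: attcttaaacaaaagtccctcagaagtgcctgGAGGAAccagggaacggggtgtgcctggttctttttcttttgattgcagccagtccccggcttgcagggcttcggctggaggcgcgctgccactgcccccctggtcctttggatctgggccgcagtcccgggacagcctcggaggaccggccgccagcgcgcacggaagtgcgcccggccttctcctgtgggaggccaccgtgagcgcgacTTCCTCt

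The Itgam window held 2 matches to the PU.1 core, which begin 84 and 15 bases before the start, and 1 GC box that begins 47 bases before it. Itgav held 2 matches to the PU.1 core, at 218 and 7 bases, and no GC box. Itgb5 held 3 GC boxes, at 199, 63 and 34 bases, and no match to the PU.1 core, while the Itgax window held neither. Among the windows not printed, Itgb1 held 1 match of each kind, Itga4 held 1 GC box and Itga9 held neither. None of these windows held TATAAA or TTTATA. Over all 32851 promoters of the table, windows of this length held the PU.1 core in 23.3%, the GC box in 32.7% and TATAAA or TTTATA in 12.4%. The GC content was 49.6% for Itgam and 50% for Itgax, and 65.2% for Itgb5 and 64.4% for Itgav, against a median of 52.4% over all promoters. A match is a run of letters and was not tested as a binding site. Whether each window, that of Itga9 included, lies at the start most used in these cells was not tested.

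The members spanned a wide range of levels, and their order was the same in all 5 libraries. Per kilobase, Itgb5 was highest with 561 ± 41.2 CPM per kb (SD, n = 5), which placed it 57th of the 17724 genes. Next were Itgb2, the shared beta chain of leukocyte integrins, with 251 ± 19.9, and Itgb1, the shared beta chain of matrix receptors, with 101 ± 3.798 CPM per kb. Itgam followed with 67.2 ± 4.83 CPM per kb, and Itga6, a laminin receptor chain, with 45.9 ± 3.98. Itgb3, the other common beta partner of alpha-v, had 26.2 ± 2.20 and Itgav 14.6 ± 1.27 CPM per kb. Itga9 (5.99 ± 0.774), Itgal (2.93 ± 0.614) and Itga4 (1.47 ± 0.252 CPM per kb) were lowest, and Itgb5 was 382-fold above Itga4. No neighbours in this order overlapped in any pair of libraries. The narrowest step was the 1.46-fold one from Itgam to Itga6, where the lowest Itgam value of 60.8 stood above the highest Itga6 value of 52.5 CPM per kb. That step rests on the listed lengths, 5024 bases for Itgam and 9142 for Itga6, whose error the spread over libraries does not measure. Before division by length, Itga6 was above Itgam in every library, at 385.0 to 479.5 against 305.5 to 363.4 CPM. Itgb3 and Itgav were then alike, with means of 155 and 157 CPM.

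**Figure D1:**
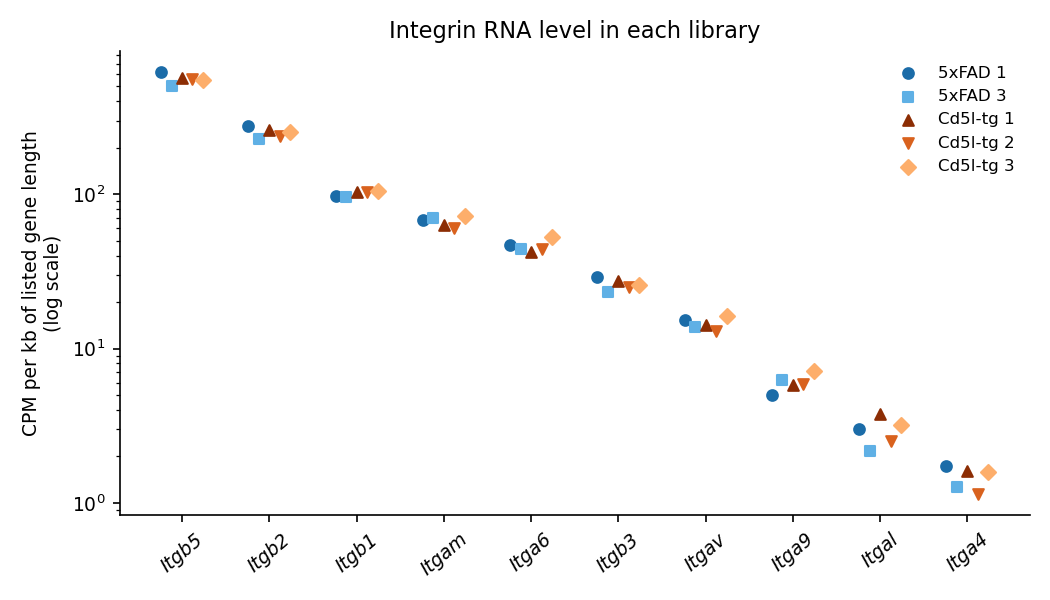
CPM per kilobase of listed gene length (log axis) for the 10 integrin genes, with 1 point per library (blue, 5xFAD; brown and orange, Cd5l-transgenic). Levels fall from 561 CPM per kb for Itgb5 to 1.47 for Itga4, and the 5 libraries of a gene lie close together against the steps between genes.

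With the Cd5l transgene the members showed little movement, and no member passed the test. Of the 10 members, edgeR called 0 higher and 0 lower at an adjusted p under 0.05, where it called 0% of all genes higher and 0% lower, with Cd5l itself uncalled (adjusted p = 0.765, against 6.30e-19 in the DESeq2 Wald test). These zeros therefore say little about genes in general. At an unadjusted p under 0.05 there were 0 members in either direction, against 217 higher (1.22%) and 258 lower genes (1.46%) in the whole table. The Wald test of DESeq2 called 0 members, and 12 higher (0.0807%) and 3 lower (0.0202%) of the 14866 genes for which it gave an adjusted p. The log2 fold changes of the members, transgenic minus 5xFAD, ran from -0.08 for Itgam to 0.28 for Itgal. Their median was -0.0058, beside -0.03 over all tested genes. Without 5xFAD replicate 1 the median of the members was 0.13, and without 5xFAD replicate 3 it was -0.07.

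**Figure D2:**
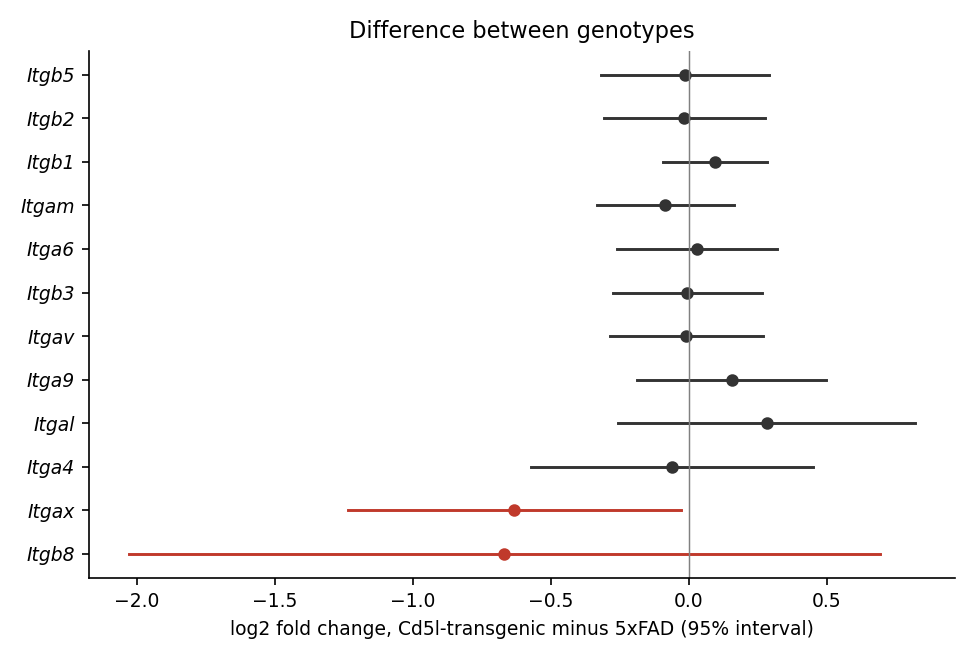
Log2 fold change of each integrin gene, Cd5l-transgenic minus 5xFAD, with its 95% interval from the edgeR fit (2 against 3 libraries); members in dark grey, ordered by level, and the partner genes Itgax and Itgb8 in red. The intervals of all 10 members span 0, and those of Itgal and Itga4 are the widest among them.

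Itgam (ENSMUSG00000030786, chromosome 7, 127661812 to 127717663, GRCm39) encodes the alpha-M chain, which pairs with beta-2 to form Mac-1 or complement receptor 3. Without the transgene it had 343.9 and 354.7 CPM, and the carriers had 319.5, 305.5 and 363.4 CPM. The groups overlapped, since transgenic replicate 3 was the highest of all libraries and the other 2 transgenic libraries were the lowest. The means were 349 ± 7.61 CPM (SD, n = 2) and 329 ± 30.2 CPM (SD, n = 3). On the log2 scale the fitted difference was -0.08, with a 95% interval from -0.33 to 0.16 (edgeR adjusted p = 0.999). The value was -0.14 without transgenic replicate 3, and -0.0020 with 5xFAD replicate 3 and transgenic replicate 2 both left out. The 10 dissociation-response genes had their highest sum in transgenic replicate 3, with 12169 CPM, against 11777 and 11633 CPM without the transgene. Their sums were lowest in transgenic replicates 1 and 2, with 8498 and 7620 CPM. Of these genes only Jun and Egr1 were highest in transgenic replicate 3. Fos, Fosb, Dusp1, Hspa1a and Hspa1b were highest in 5xFAD replicate 3, and Junb, Ier2 and Atf3 in 5xFAD replicate 1. The part of the dissociation-response genes in the Itgam values was not tested.

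Itgb2 (ENSMUSG00000000290, chromosome 10, 77366086 to 77401542) encodes CD18, the beta chain shared by Itgam, Itgal and Itgax. The 5xFAD libraries held 849.5 and 694.6 CPM, the carriers 799.0, 725.0 and 768.1 CPM. All 3 transgenic libraries lay between the 2 5xFAD libraries, so the groups overlapped completely. The log2 fold change was -0.01 with an interval from -0.31 to 0.28, and it was 0.14 without 5xFAD replicate 1 and -0.15 without 5xFAD replicate 3.

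Itgal (ENSMUSG00000030830, chromosome 7, 126895432 to 126934310) encodes CD11a, the alpha chain of LFA-1, which binds ICAMs and is abundant on lymphocytes and neutrophils. It was low here, with 19.8 and 14.3 CPM without the transgene against 24.7, 16.5 and 21.0 CPM in carriers. Transgenic replicate 1 was highest and 5xFAD replicate 3 lowest, with overlap between the groups. A log2 fold change of 0.28 was the largest among the members, with an interval from -0.26 to 0.82, and without 5xFAD replicate 3 it was 0.07. The 7 neutrophil markers were also highest in transgenic replicate 1, with a sum of 192 CPM, against 148 and 72.1 CPM in replicates 2 and 3 and 55.8 and 74.4 CPM in 5xFAD. The 8 markers of T and NK cells summed to 3.42 to 6.51 CPM, with 5xFAD replicate 1 highest. The part of either cell type in the Itgal values was not tested, and in bulk RNA fewer cells of a type cannot be told apart from less RNA per cell.

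The alpha partners of Itgb2 were unequal in RNA. Per kilobase, Itgb2 stood 3.76 ± 0.390-fold above Itgam (SD, n = 5) and 88.1 ± 13.8-fold above Itgal. Itgax, which encodes CD11c and begins 11.1 kb beyond the end of Itgam on chromosome 7 (127728719 to 127749829), was the largest partner. In 5xFAD replicate 1 the summed RNA of Itgam, Itgal and Itgax was 384 CPM per kb, above the 278 CPM per kb of Itgb2. In 5xFAD replicate 3 the sum was 246 against 228 for Itgb2, and in the transgenic libraries it was 229, 220 and 229 against 262, 238 and 252 CPM per kb. The partners thus exceeded Itgb2 in both 5xFAD libraries and stayed below it in all 3 transgenic ones, a pattern seen in the values and not tested. Where the sum crosses Itgb2 depends on the listed gene lengths. In 5xFAD replicate 3 the partner sum was near those of the transgenic libraries, and Itgb2 was at its lowest. Itgam made up 17.8% of the partner sum in 5xFAD replicate 1, 28.7% in 5xFAD replicate 3, and 27.8%, 27.7% and 31.6% with the transgene. Itgax had a log2 fold change of -0.63 (SE 0.24, edgeR adjusted p = 0.999), which was -0.14 without 5xFAD replicate 1. With 5xFAD replicate 3 and transgenic replicate 2 both left out, it was -0.98 and passed (edgeR adjusted p = 0.00668), in a fit whose only 5xFAD library was replicate 1.

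**Figure D3:**
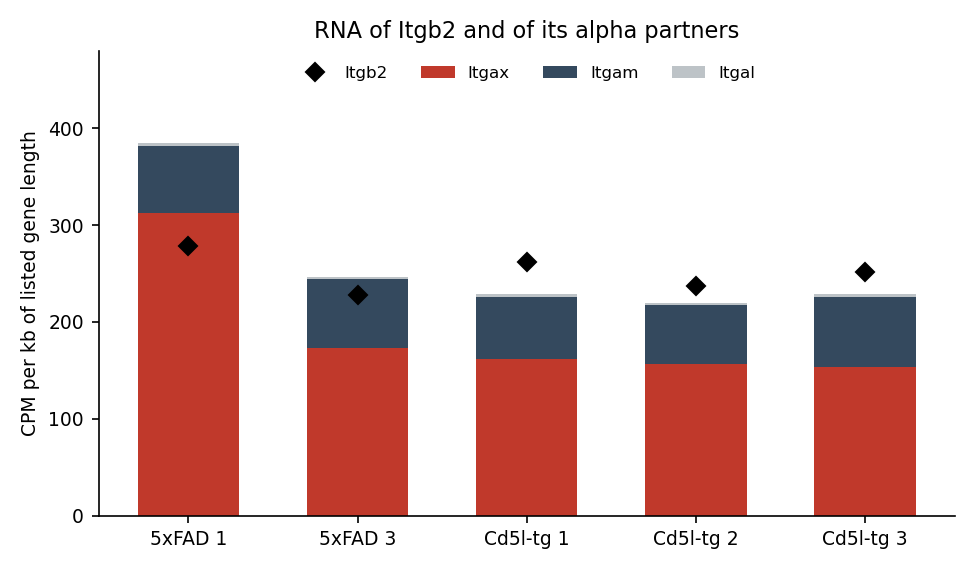
Stacked bars give CPM per kilobase of the 3 alpha genes Itgax, Itgam and Itgal in each library, and diamonds give Itgb2. The bar of 5xFAD replicate 1 reaches 384 CPM per kb through Itgax, while the Itgam portion stays between 60.8 and 72.3 CPM per kb.

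Itgav (ENSMUSG00000027087, chromosome 2, 83554741 to 83637260) encodes the alpha-v chain, a receptor part for ligands with an RGD motif. Its 5xFAD values were 165.2 and 149.0 CPM, those of the carriers 153.4, 140.3 and 175.0 CPM. The highest and the lowest library were both transgenic, replicates 3 and 2. Its log2 fold change was -0.0076, with an interval from -0.28 to 0.27.

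Itgb5 (ENSMUSG00000022817, chromosome 16, 33650035 to 33769708) encodes beta-5, which pairs with alpha-v alone and serves in the uptake of apoptotic cells. Counts came to 2208 and 1800 CPM without the transgene, while the carriers had 2006, 1999.6 and 1951 CPM. As for Itgb2, the transgenic libraries fell inside the 5xFAD range. Its log2 fold change was -0.01, with an interval from -0.32 to 0.29. Itgb5 held 44.2% to 47.5% of the summed CPM of the members. Per kilobase it was 38.7 ± 3.62-fold above Itgav (SD, n = 5).

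Itgb3 (ENSMUSG00000020689, chromosome 11, 104498826 to 104561302) encodes beta-3, which pairs with alpha-v and, in platelets, with the product of Itga2b. Its values were 172.3 and 138.0 CPM without the transgene and 161.9, 148.9 and 153.2 CPM in carriers, again with every transgenic library between the 5xFAD ones. That gave a log2 fold change of -0.0039, with an interval from -0.27 to 0.27. The 7 platelet markers, Itga2b among them, summed to only 9.11 to 10.7 CPM, and Itga2b itself had 0.745 to 2.12 CPM. Itgb8, the partner of alpha-v in TGF-beta release, had 9.996 and 30.1 CPM without the transgene, and its carriers had 9.89, 18.4 and 9.56 CPM. Its highest library, 5xFAD replicate 3, was also highest in choroid plexus and ependymal markers, whose part was not tested, and its log2 fold change of -0.67 was 0.33 without that library.

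Itgb1 (ENSMUSG00000025809, chromosome 8, 129412135 to 129459681) encodes beta-1, the partner of Itga4, Itga6 and Itga9. It was the single member whose groups did not overlap, with 399.2 and 390.7 CPM without the transgene below 421.1, 419.4 and 426.5 CPM in carriers. That is 1 of 10 members with every transgenic library above both 5xFAD libraries, and 0 of 10 with every one below, where the whole table had 7.2% and 8.69%. The means were 395 ± 5.99 CPM (SD, n = 2) and 422 ± 3.67 CPM (SD, n = 3), a ratio of 1.07. On the log2 scale this was 0.10 with an interval from -0.09 to 0.29 (edgeR adjusted p = 0.999). Its SD within groups of 0.0163 on the log2 scale was at the 0.538th percentile of the 7250 genes that averaged 20 CPM or more. The interval is wider than that spread because edgeR draws the variance of each gene towards that of genes at its level. With libraries scaled to the microglial markers instead, the log2 fold change was 0.04.

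Itga6 (ENSMUSG00000027111, chromosome 2, 71575960 to 71688760) encodes the alpha-6 chain of laminin receptors, used also by endothelium. Both 5xFAD libraries, at 425.9 and 403.5 CPM, lay among the carriers at 385.0, 405.2 and 479.5 CPM. The lowest and the highest library were transgenic, and the log2 fold change was 0.03 with an interval from -0.26 to 0.32. The 10 endothelial markers summed to 1234 CPM in transgenic replicate 2 and to 604 to 692 CPM in the other libraries. Their part in the Itga6 values was not tested.

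Itga4 (ENSMUSG00000027009, chromosome 2, 79085770 to 79163467) encodes the alpha-4 chain of VLA-4, which binds VCAM1 and fibronectin and is typical of blood-derived leukocytes. Without the transgene it had 24.3 and 17.8 CPM, and carriers had 22.6, 15.9 and 22.1 CPM. Both groups held a low library, and the log2 fold change was -0.06 with an interval from -0.57 to 0.45. The 6 monocyte markers were low in all libraries, with sums of 19.2 and 24.9 CPM without the transgene against 44.0, 30.6 and 27.8 CPM in carriers. Their part in the Itga4 values was not tested.

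Itga9 (ENSMUSG00000039115, chromosome 9, 118435758 to 118730071) encodes the alpha-9 chain, a receptor part for tenascin C and osteopontin. Carriers had 44.4, 45.1 and 54.7 CPM, against 38.3 and 47.9 CPM without the transgene. 5xFAD replicate 1 was lowest and transgenic replicate 3 highest, with 5xFAD replicate 3 between the transgenic values. This gave a log2 fold change of 0.16 with an interval from -0.19 to 0.50, and 0.0068 without 5xFAD replicate 1. The opposite-strand gene Gm2415 overlaps it with 5.61% as many counts, and Cerkl overlaps Itga4 with 4.23%, so that a small share of reads could belong to either gene if strand was not used in counting.

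Several members had a like order of libraries, described here without a test. Itgb2, Itgb3 and Itgb5 were highest in 5xFAD replicate 1 and lowest in 5xFAD replicate 3. After centring each gene on its mean log2 CPM, Itgb2 and Itgb3 differed by a root mean square of 0.0176 over the 5 libraries, the smallest among all pairs of members. The pairs Itgb5 with Itgb3 (0.0384) and Itgb2 with Itgb5 (0.0467) followed. Itgam, Itgav and Itga6 formed the next closest set, with differences of 0.0707 to 0.0830, and all 3 were highest in transgenic replicate 3. The widest difference was that between Itgal and Itga9, at 0.330. Over all 10 members, transgenic replicate 3 was the highest library for 5 and the lowest for 0, and 5xFAD replicate 3 was the highest for 0 and the lowest for 5. No such count was made over all tested genes, so these counts are not read as particular to the integrins.

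**Figure D4:**
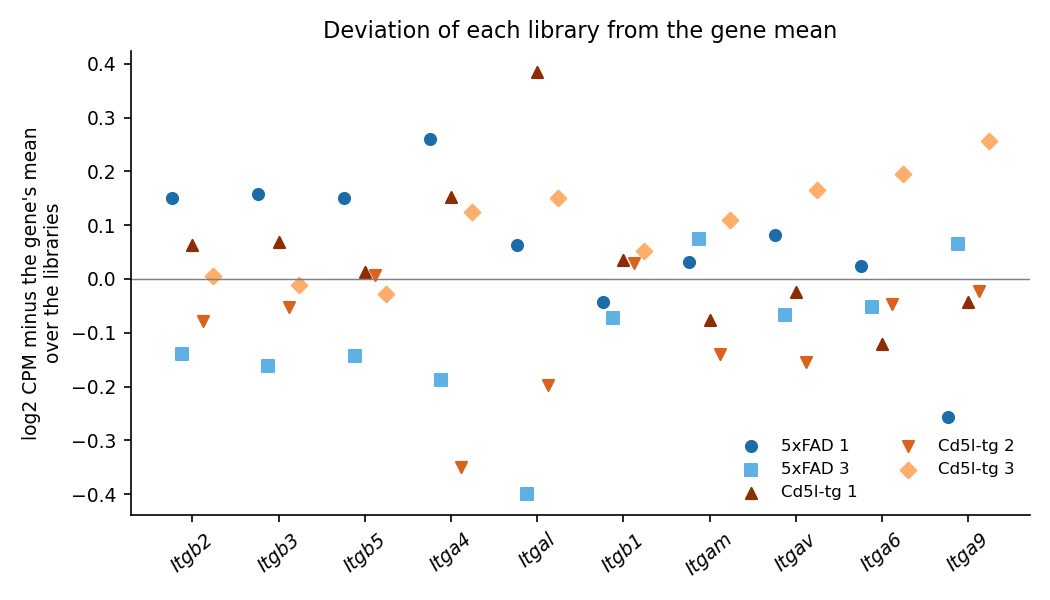
Log2 CPM of each library minus the mean of the gene over the 5 libraries, with 1 symbol per library (blue, 5xFAD; brown and orange, Cd5l-transgenic). For Itgb2, Itgb3 and Itgb5 the transgenic points lie between the 2 5xFAD points, and for Itgam, Itgav, Itga6 and Itga9 the highest point is transgenic replicate 3.

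By the same measure, Itgb3 was the fifth closest gene to Itgb2 among the 7127 genes that averaged 20 CPM or more and had no provisional symbol. Nearer to Itgb2 were Ehbp1l1 (0.00994), Thap3 (0.0134), Slc39a14 (0.0154) and the cation channel Trpv2 (0.0157). The genes closest to Itgam were Atxn3 (0.0103), Acap2 (0.0108), Stam2 (0.0111), Alg8 (0.0114) and Pias1 (0.0119), none of which is an integrin. With 5 libraries, such likeness describes these mice.

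The balance of subunits within known pairs was compared as the log2 ratio of alpha to beta counts in each library. Of 8 pairs, 0 passed the two-sided exact permutation test over libraries, which with 2 against 3 mice cannot go below p = 0.2, and every adjusted p was 1. For Itgam to Itgb2 the log2 ratio was -1.30 and -0.97 in 5xFAD and -1.32, -1.25 and -1.08 with the transgene, a difference of -0.08 (exact permutation p = 0.6). The ratio of Itgal to Itgb2 differed most, by 0.29, from a mean of -5.51 ± 0.12 (SD, n = 2) to -5.22 ± 0.22 (SD, n = 3). Its exact permutation p was 0.4. For Itgav the differences were -0.0057 to Itgb5, -0.02 to Itgb3 and -0.11 to Itgb1, and for Itga4, Itga6 and Itga9 to Itgb1 they were -0.16, -0.07 and 0.06. Each of these was smaller than the larger of the SDs within the groups.

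The rest of the integrin pathway was described by fixed lists. Of 17 other integrin subunit genes 14 passed the filter, with a median log2 fold change of 0.24, and Itga2, Itga11 and Itgb6 were below it. The median was 0.47 without 5xFAD replicate 3 and 0.12 with a filter of 5 CPM in 2 libraries. Most of the 14 were rare in these cells: apart from Itgax and Itga5, the fibronectin receptor chain at 85.6 to 118 CPM, none exceeded 37.8 CPM in any library. In 4 of the 14 every transgenic library was higher and in 1, Itgax, every one was lower, where the whole table had 7.2% and 8.69%. None of the 14 passed the test, which called 0% of all tested genes higher and 0% lower. Itga8, a chain of mesenchymal cells, had 1.83 and 1.35 CPM without the transgene and 2.81, 2.76 and 3.36 CPM in carriers, a log2 fold change of 0.90 (SE 0.30, edgeR adjusted p = 0.999). Mural and fibroblast markers summed to 161 and 234 CPM without the transgene and 228, 396 and 316 CPM in carriers, and their part in it was not tested.

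None of the intracellular machinery passed the test, which called 0% of all tested genes higher and 0% lower. Of the 28 genes for activators and the adhesion complex 27 were tested, with a median of 0.03 and 0 called in either direction. Of these, 16 lay above and 11 below 0. Over all tested genes, 7598 lay above and 10126 below 0, with a median of -0.03. Talin 1 (Tln1) stood at 763 to 925 CPM and kindlin-3 (Fermt3), the kindlin of blood cells, at 254 to 288 CPM, with log2 fold changes of 0.02 and 0.04. The smallest unadjusted p-values of that list belonged to Rasgrp2, an exchange factor for Rap1, at 8.81 and 13.8 CPM against 13.8, 24.7 and 14.2 CPM (log2 fold change 0.63), and to Vcl, vinculin (0.22). Both were highest in transgenic replicate 2, the library richest in oligodendrocyte markers and also in endothelial, mural and fibroblast, and astrocyte markers. The part of these cell types was not tested. Without transgenic replicate 2 the log2 fold changes of Rasgrp2 and Vcl were 0.32 and 0.11, and with the replicate block 0.34 and 0.10. Rasgrp2 also moved to 0.35 without 5xFAD replicate 1 and to 0.99 without 5xFAD replicate 3. Of the 20 kinases and adaptors 10 lay above and 10 below 0, with a median of 0.0064 and 0 called. Vav3, a guanine nucleotide exchange factor, was rare, with 0.745 and 1.27 CPM against 2.46, 2.04 and 2.66 CPM in carriers (a log2 difference of 1.24, SE 0.37, edgeR adjusted p = 0.999). Rac2, the GTPase of blood cells, had a log2 fold change of 0.08.

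Ligands and counter-receptors had a higher median log2 fold change than all tested genes. Of 32 genes 28 were tested, with 0 called by edgeR or DESeq2, where edgeR called 0% of all genes in either direction. Of the 28, with a median of 0.23, 20 lay above and 8 below 0, against 7598 and 10126 in the whole table. That median was 0.11 without transgenic replicate 2 and 0.09 with the replicate block. Jam2, an adhesion protein of endothelial junctions that binds VLA-4, had the smallest unadjusted p of the list. Carriers had 123, 125 and 121 CPM, above the 97.0 and 102 CPM without the transgene, with no overlap. Its log2 fold change was 0.31 (SE 0.07), with adjusted p = 0.999 in edgeR and 0.0537 in DESeq2, and it lay between 0.25 and 0.34 under every alternative tried. Fn1, fibronectin, had 116 CPM in both 5xFAD libraries, and its carriers had 156, 267 and 145 CPM. Its log2 fold change of 0.71 (SE 0.29, edgeR adjusted p = 0.999) was 0.39 without transgenic replicate 2, and 0.37 with the replicate block. All 10 endothelial markers had a log2 fold change above 0, with a median of 0.71. In 5 of them every transgenic library was higher, where the whole table had 7.2%. Among the other marker lists, the medians ran from -1.55 for choroid plexus and ependyma to 3.04 for erythroid markers. The part of endothelial cells in the Jam2 and Fn1 values was not tested.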

How the data were processed

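Each of the 5 libraries holds bulk RNA of CD11b-positive cells from 1 brain. The authors deposited raw counts per Ensembl gene, with gene positions and lengths. Per the submitters' processing notes the build was GRCm39. The aligner, counter, annotation release and use of strand were not given in the sources used here. Columns were matched to libraries by name. One column name had its letter pairs in the opposite order, and its letters and digit fit a single library. The tests set the difference between groups against the variation between these mice. No label says whether the mice shared litters or days, so a litter or day effect could not be told apart from genotype.

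Genes were filtered with filterByExpr, scaled by TMM (factors 0.952 to 1.02) and tested with the quasi-likelihood test of edgeR 4.0.16 with robust settings under R 4.3.3, on genotype alone, with Benjamini-Hochberg adjustment over all 17724 tested genes at a threshold of 0.05. Standard errors come from the fold change and F statistic, and 95% intervals from the moderated degrees of freedom. The biological coefficient of variation was 0.26. A single count was worth 0.0282 to 0.0339 CPM. Centred log2 CPM used a prior count of 2. Likeness was ranked among genes that averaged 20 CPM or more and had no provisional symbol. Subunit ratios were tested by exact permutation with scipy 1.17.1. The scripts were tested on simulated data.

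All 10 members are named. From each pathway list the 2 genes with the smallest unadjusted p are named, plus Itgax, Itgb8 and Cd5l. Other genes named were chosen after their values were seen. The members and lists were chosen with earlier results of these data known. Alternatives were other scalings (DESeq2 size factors, upper quartile, microglial markers), the Wald test of DESeq2 1.42.0, other filters, a replicate block, and fits without single libraries.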

Additional observations from a re-analysis of the deposited data

How the results depend on the processing

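No member passed the edgeR or DESeq2 threshold under any alternative run, and Itgam (-0.14 to -0.0020), Itgal (0.07 to 0.54), Itgb1 (0.04 to 0.13) and Itga9 (0.0068 to 0.38) kept their sign in all 13. The signs of the near-zero members depended on scaling, and the cause was not tested. In the order Itgb2, Itgav, Itgb5, Itgb3, the log2 fold changes became 0.0040, 0.011, 0.0057 and 0.015 with DESeq2 size factors, 0.0058, 0.012, 0.0069 and 0.017 with upper-quartile factors, 0.019, 0.024, 0.021 and 0.030 with a filter of 5 CPM in 2 libraries, and 0.0050, 0.013, 0.0066 and 0.016 in the DESeq2 Wald test. With microglial marker scaling Itga6 was -0.028. With the replicate block Itgb2 was 0.028, Itgav 0.063, Itga4 0.10 and Itgb3 0.031, and 0 genes were called in either direction. The numbers were not taken as pairs, since no label states a pairing. Deviations from the group means correlated at 0.34 for replicates 1 and -0.16 for replicates 3. These values cannot decide on pairing, because with 2 5xFAD libraries the deviations of 1 mirror those of the other. Leaving out 1 library at a time gave ranges of -0.15 to 0.14 for Itgb2, -0.082 to 0.077 for Itgav, -0.16 to 0.14 for Itgb5, -0.27 to 0.18 for Itga4, -0.050 to 0.093 for Itga6, -0.16 to 0.17 for Itgb3, -1.25 to 0.33 for Itgb8, -0.011 to 0.18 for Rac2 and -0.073 to 0.13 for the median of the members. The lone library of a group is then assumed to vary like the rest. For ratio differences the ranges were -0.25 to 0.088 for Itgam to Itgb2, -0.10 to 0.074 for Itgav to Itgb5, -0.11 to 0.070 for Itgav to Itgb3, -0.37 to 0.052 for Itga4 to Itgb1 and -0.11 to 0.24 for Itga9 to Itgb1. Counts of called genes ran from 0 to 1 higher and 0 to 9 lower without 1 library, the 9 arising without 5xFAD replicate 1 and the 1 higher without 5xFAD replicate 3. They were 12 and 3 in DESeq2, 0 and 1 with no low-count filter, and 36 and 58 when transgenic replicate 2 and 5xFAD replicate 3 were both omitted, an alternative chosen after seeing the data. Intervals of the rare members Itgal and Itga4 were the widest. With 5 mice, differences inside the printed intervals remain possible, and the intervals are not a limit of detection. Cd5l itself, with an interval from 6.56 to 9.89, was not called by edgeR in the main fit.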
